A study of Mus musculus with 32 samples.

Results

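The difference that ACLY held in the cytoplasm makes to gene expression was compared between low and high glucose. ACLY, ATP-citrate lyase, was followed in mouse embryonic fibroblasts whose own Acly gene is knocked out. In Cyto cells the knockout line carried mCherry-tagged human ACLY with a nuclear export sequence, and in KO cells it carried the red fluorescent protein mCherry without ACLY. Each was kept in low (1 mM) or high (10 mM) glucose for 24 h, in DMEM with 10% CS and antibiotics, after 500000 cells had been seeded per 6 cm plate. For every gene the Cyto effect, the log2 value in Cyto minus that in KO, was taken within each medium, and the effect in 10 mM was subtracted from the effect in 1 mM. The members were all 11931 genes that are in both the 1 mM table (12053 genes) and the 10 mM table (12791 genes). No further choice by value was made, but the filter for a gene to be listed in either table is not known. The members were measured in 15 of the 31 libraries in the tables: 4 Cyto and 4 KO libraries in 1 mM, and 3 Cyto and 4 KO libraries in 10 mM glucose. The third Cyto library in 10 mM glucose was set aside by the submitters as an anomaly. The same knockout cells with tagged human ACLY that has no localization sequence (WT), or with added nuclear import sequences (Nuc), served for 2 further comparisons, with 4 libraries each per medium. The labels describe 1 knockout cell line and do not say how many times a construct was introduced or whether libraries of a group were separate cultures. The p-values below thus speak of the spread between these libraries alone, and that spread may be technical.

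ACLY splits citrate that has left the mitochondria into acetyl-CoA and oxaloacetate. Acetyl-CoA made this way feeds the synthesis of fatty acids and sterols in the cytosol and the acetylation of histones in the nucleus, and much of its carbon in cultured cells comes from glucose. Cells also meet low glucose with other programmes: protein glycosylation in the endoplasmic reticulum (ER) draws on sugar supply, and misfolded proteins there switch on the unfolded protein response, whose sensors raise ER chaperones and, through ATF4, amino acid transport and synthesis genes of the integrated stress response. Sterol genes are under SREBP transcription factors, which are held in the ER while sterols are plentiful.

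Levels are deposited log2 values that behave like log2 CPM (read counts scaled to 1 shared library total), normalized separately for each medium. Medium and sequencing batch coincide in the labels (1 mM was batch 1, 10 mM was batch 2), so their effects on levels cannot be told apart, and only construct effects are compared between media. A batch effect cancels from these only where it is equal in both constructs. Where it is not, glucose and batch cannot be told apart in the differences below. Acly read 10.55, 10.55, 10.50 and 10.41 log2 CPM in Cyto cells and 5.19, 5.43, 5.38 and 5.38 in KO cells in 1 mM glucose. In 10 mM glucose it read 9.89, 9.67 and 9.67 log2 CPM in Cyto cells and 6.12, 5.94, 5.79 and 5.63 in KO cells. Cyto lay far above KO in both media, and the effect was 1.29 ± 0.12 larger on the log2 scale in 1 mM. The sources used here do not give how reads of the human transgene were assigned to the mouse gene. Of 12 fibroblast markers 11 were listed, without Fap, and their summed level in CPM was 19369 to 22565 in Cyto and 27158 to 31746 in KO libraries in 1 mM, and 24774 to 27064 in Cyto and 18177 to 20270 in KO libraries in 10 mM glucose. Of 8 macrophage and leukocyte markers 4 were listed, with sums of 12 to 28 CPM, and Ptprc, Adgre1, Aif1 and Itgam were not. The 4 adipocyte markers listed of 6, without Adipoq and Plin1, summed to 359 to 421 CPM in Cyto and 251 to 258 in KO libraries in 1 mM, and to 222 to 264 in Cyto and 277 to 291 in KO libraries in 10 mM glucose. The few endothelial and epithelial markers listed summed to at most 30 CPM, and none of 5 skeletal myogenic markers was listed. In bulk RNA, fewer cells of a type and less RNA per cell cannot be told apart.

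The Cyto effect depended on the medium for 5332 of 11931 genes (44.7%), called by limma at a Benjamini-Hochberg adjusted p under 0.05. The glucose difference, which is the effect in 1 mM minus the effect in 10 mM, was positive for 2568 genes (21.5%), called higher below, and negative for 2764 (23.2%), called lower. At least a 2-fold difference was reached by 651 higher genes (5.46%) and 870 lower genes (7.29%). The median over all genes was -0.03 and the median SE was 0.17 on the log2 scale. More genes were called between Cyto and KO in 1 mM glucose, 7535 (63.2%), with 3662 up (30.7%) and 3873 down (32.5%), than in 10 mM glucose, 5248 (44%), with 2711 up (22.7%) and 2537 down (21.3%). There was 1 Cyto library fewer in 10 mM, and the median SD within groups was 0.157 in 1 mM and 0.175 in 10 mM on the log2 scale. The Cyto and KO libraries did not overlap for 63.8% of genes in 1 mM and 42.6% in 10 mM glucose. Across genes the effects in the 2 media, which share no library, had a Pearson r of 0.487, and genes are not independent replicates.

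Most of the 5332 genes had an effect that was called in 1 mM glucose and was absent from the calls or smaller in 10 mM. The effect was called in 1 mM alone for 2393 genes (20.1% of all genes) and in 10 mM alone for 882 (7.39%). It had the same direction in both media and was larger in 1 mM for 850 genes (7.12%), and larger in 10 mM for 282 (2.36%). For 799 genes (6.7%) the effect was called in both media in opposite directions, 348 of them up in 1 mM (2.92%) and 451 down in 1 mM (3.78%). The other 126 (1.06%) were called in neither medium.

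**Figure D1:**
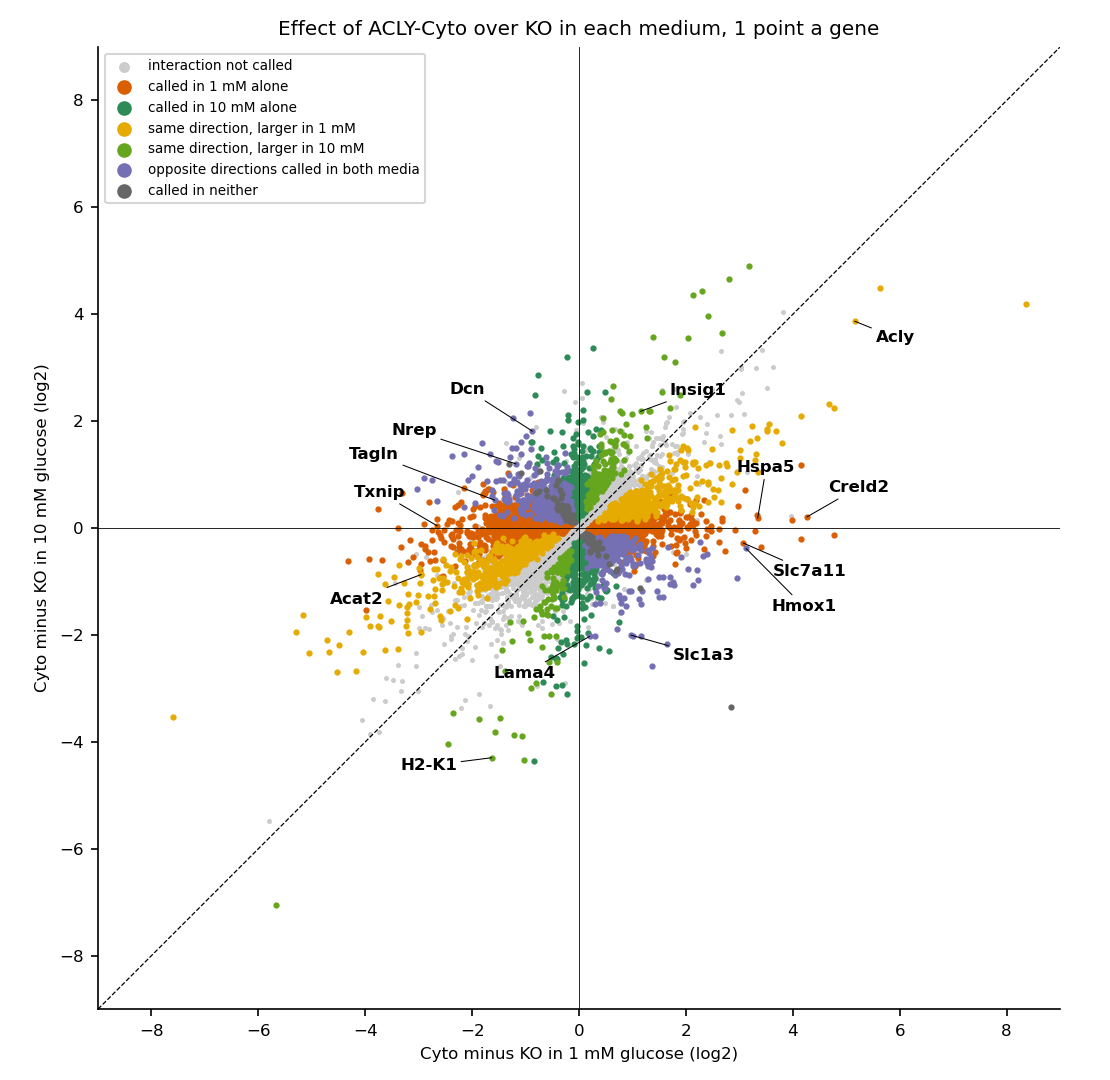
The Cyto effect (Cyto minus KO, log2) of each of 11931 genes is plotted with the value in 1 mM glucose on the horizontal axis and the value in 10 mM on the vertical axis, and colours give the classes of the 5332 genes called for the glucose difference. Points off the dashed line of equal effects are spread more along the horizontal axis, where 2393 genes had an effect called in 1 mM alone, against 882 called in 10 mM alone.

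**Figure D2:**
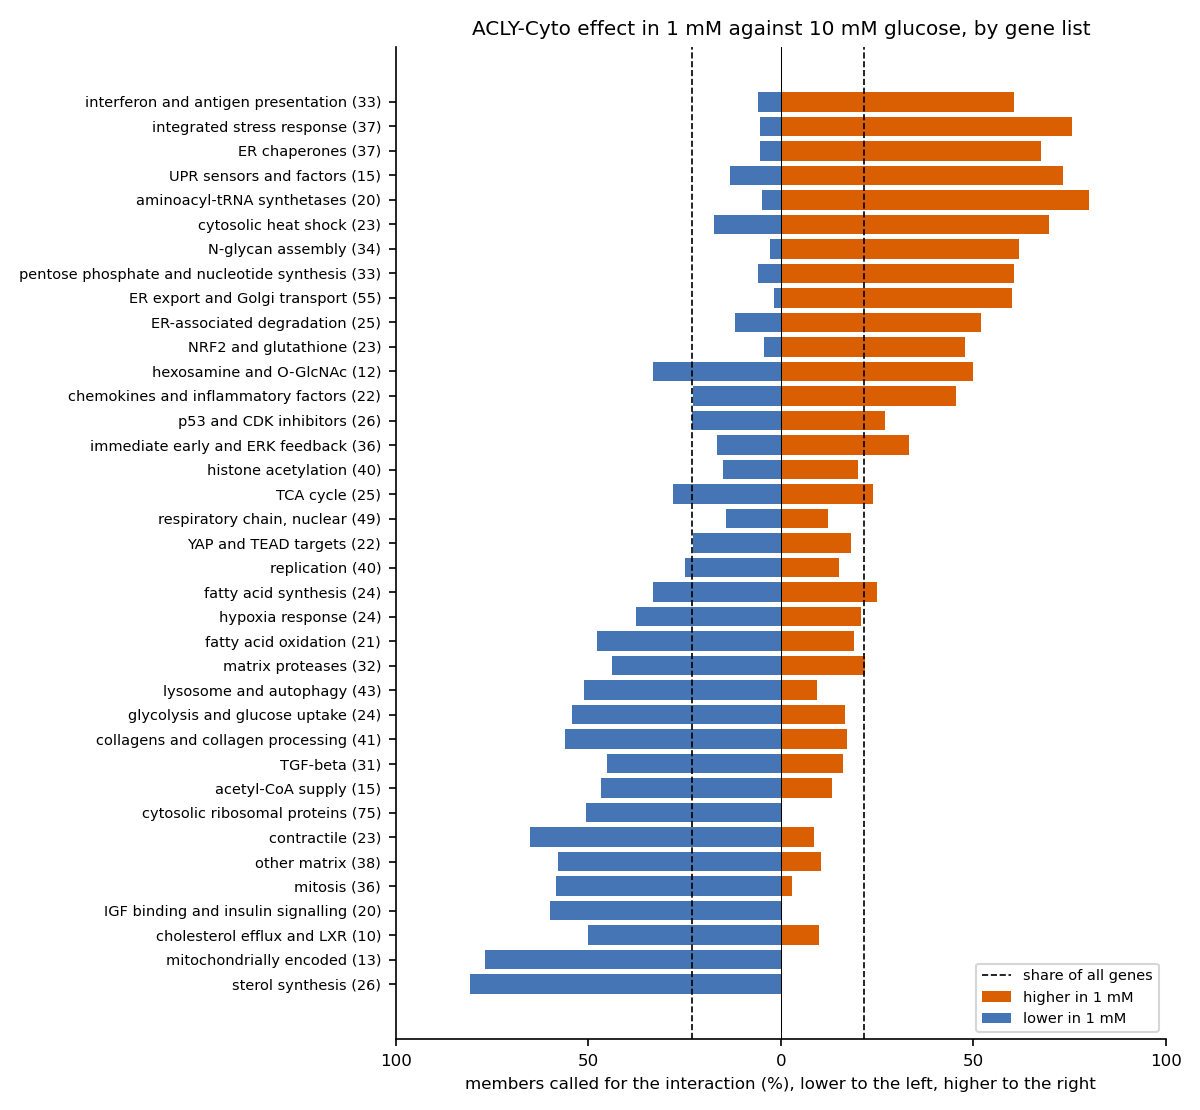
For each gene list with at least 10 members, bars give the percent of its members called for the glucose difference, lower to the left and higher to the right, and dashed lines give the shares of all genes (23.2% lower, 21.5% higher). Lists of the ER and of the stress responses lie to the right and the sterol synthesis list, with 21 of 26 members lower and none higher, lies to the left.

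Genes of ER protein folding led the positive glucose differences, with 7 of the 10 largest among genes at or above the median level. Of 37 ER chaperones and folding enzymes, 25 were higher, 16 of them at least 2-fold, and 2 were lower, against 21.5% and 23.2% of all genes. The list's median glucose difference was 0.84 on the log2 scale. In 1 mM glucose 32 of its members were up and 2 down with Cyto (median effect 0.96), where up and down mean called, and in 10 mM 10 were up and 2 down (median 0.17). Of all genes 30.7% were up and 32.5% down in 1 mM, and 22.7% were up and 21.3% down in 10 mM. These shares, and the 21.5% higher and 23.2% lower, are the background of every list below for Cyto over KO. Of the 27 called members 20 were called in 1 mM alone. Hspa5, the central Hsp70 chaperone of the ER known as BiP, read 12.94, 13.25, 13.13 and 13.10 log2 CPM in Cyto cells and 9.63, 10.03, 9.60 and 9.79 in KO cells in 1 mM glucose. In 10 mM it read 9.83, 9.71 and 9.86 in Cyto cells and 9.49, 9.61, 9.62 and 9.74 in KO cells. Every Cyto library was above every KO library in 1 mM, and the groups overlapped in 10 mM. Hspa5 was 10.1-fold higher in Cyto in 1 mM glucose, and its log2 effect was 3.34 ± 0.11 there and 0.19 ± 0.12 in 10 mM.

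Creld2, a stress-inducible ER protein with thioredoxin-like activity, had the largest glucose difference among genes at or above the median level, 4.06 ± 0.23 on the log2 scale. It read 9.09, 9.14, 9.0 and 8.93 log2 CPM in Cyto and 4.69, 5.02, 4.62 and 4.78 in KO cells in 1 mM, and 5.77, 5.59 and 5.64 in Cyto and 5.34, 5.32, 5.44 and 5.73 in KO cells in 10 mM glucose. The groups were wide apart in the low medium and overlapped in the high one. Calr, the lectin chaperone calreticulin, read 11.53, 11.69, 11.65 and 11.53 log2 CPM in Cyto and 9.36, 9.43, 9.26 and 9.31 in KO cells in 1 mM, and 9.58, 9.59 and 9.74 in Cyto and 9.74, 9.83, 9.99 and 10.06 in KO cells in 10 mM. Its effect was opposite in the 2 media, 2.26 ± 0.09 in 1 mM and -0.27 ± 0.10 in 10 mM on the log2 scale, and the groups met at 9.74 in 10 mM.

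The other ER members named by the rule had the same form. The effect in 1 mM was 3.28 ± 0.08 for Hyou1, a nucleotide exchange factor of BiP, 3.34 ± 0.14 for Manf, an ER-resident trophic factor, 2.37 ± 0.08 for Dnajc3, a BiP co-chaperone that restrains PERK, and 2.68 ± 0.11 for Hsp90b1, the ER paralog of Hsp90. In 10 mM the effects of these 4 genes lay between -0.16 and 0.24 on the log2 scale and were not called. Of genes picked after their values were seen, Sdf2l1, a BiP-associated protein, had a glucose difference of 4.90 ± 0.26, Dnajb9 2.52 ± 0.14, and the disulfide isomerases Pdia4 and Pdia6 2.23 ± 0.12 and 2.01 ± 0.15 (log2). The 2 lower members were Fkbp14, a prolyl isomerase that acts on collagen, at -0.81 ± 0.13, and Cnpy4, at -0.41 ± 0.13, both down with Cyto in 1 mM.

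The promoters of 5 of these genes are shown because they hold the ER stress response element (ERSE, CCAAT and CCACG with 9 bases of any kind between them), which ATF6 and NF-Y are known to bind, and because their genes are among those with the widest gap between media. Each run is the 250 bases before the start of the gene in RefSeq's GRCm38.p6 annotation, read 5′ to 3′ on the gene's strand, with the ERSE in capitals, in either orientation. They are Hspa5 at chr2:34771840-34772089 (plus strand), Hsp90b1 at chr10:86705445-86705694 (minus), Calr at chr8:84846932-84847181 (minus), Dnajc3 at chr14:118937682-118937931 (plus) and Creld2 at chr15:88819396-88819645 (plus).
Hspa5: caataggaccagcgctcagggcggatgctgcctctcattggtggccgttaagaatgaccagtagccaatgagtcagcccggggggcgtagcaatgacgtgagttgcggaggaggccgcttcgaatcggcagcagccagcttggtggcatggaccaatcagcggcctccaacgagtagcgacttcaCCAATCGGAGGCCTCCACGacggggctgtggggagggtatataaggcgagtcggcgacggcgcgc
Hsp90b1: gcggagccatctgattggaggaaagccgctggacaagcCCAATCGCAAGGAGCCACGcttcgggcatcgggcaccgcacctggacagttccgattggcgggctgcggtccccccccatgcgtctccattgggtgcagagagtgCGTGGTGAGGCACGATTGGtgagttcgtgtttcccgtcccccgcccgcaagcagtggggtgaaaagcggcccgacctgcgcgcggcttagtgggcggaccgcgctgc
Calr: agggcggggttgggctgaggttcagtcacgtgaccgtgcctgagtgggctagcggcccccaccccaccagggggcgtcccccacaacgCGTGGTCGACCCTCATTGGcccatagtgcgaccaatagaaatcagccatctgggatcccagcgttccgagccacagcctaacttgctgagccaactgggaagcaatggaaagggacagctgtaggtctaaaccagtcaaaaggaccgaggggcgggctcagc
Dnajc3: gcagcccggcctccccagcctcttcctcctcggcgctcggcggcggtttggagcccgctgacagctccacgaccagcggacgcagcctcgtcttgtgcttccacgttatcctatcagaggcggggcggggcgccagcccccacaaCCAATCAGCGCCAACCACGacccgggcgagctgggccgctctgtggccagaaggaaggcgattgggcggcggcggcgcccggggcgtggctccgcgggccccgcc
Creld2: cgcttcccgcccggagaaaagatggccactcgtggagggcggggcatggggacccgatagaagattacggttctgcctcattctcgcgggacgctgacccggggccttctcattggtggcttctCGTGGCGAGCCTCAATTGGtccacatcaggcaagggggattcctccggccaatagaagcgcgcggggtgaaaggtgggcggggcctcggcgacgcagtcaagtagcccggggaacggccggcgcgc
The match lay 65 to 47 bases before the start in Hspa5, 105 to 87 in Dnajc3 and, in reverse orientation, 162 to 144 in Calr and 126 to 108 in Creld2, and Hsp90b1 held 1 match in each orientation.

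Searched on both strands in windows of this length, the ERSE occurred in 39 of 32851 promoters (0.119%) and in 16 of the 9205 genes of both tables that have a promoter entry (0.174%). It was in 8 of the 22 higher ER chaperones with an entry (36.4%): the 5 above, Canx, Ero1b and Pdia6. Of all 16 genes with a match, 13 were higher, 1 was lower (Pan2) and 2 were not called (Acacb and Adcy3), and their median glucose difference was 1.66 on the log2 scale. Canx, the membrane-bound partner of calreticulin, was among the smaller at 0.54 ± 0.10, and Ero1b, an oxidase that recharges the isomerases, had 1.60 ± 0.17. Members with no match rose as well, Dnajb9 and Pdia4 among them. The UPRE (TGACGTGG), bound by XBP1 and ATF6, shares its CGTGG end with the reversed ERSE. It was found in 5 of 22 higher ER export genes with an entry (22.7%; Copb1, Copb2, Kdelr3, Sec23a and Sec24d), against 1.05% of genes in both tables. Other motifs were searched in the same windows. The SREBP element (SRE) was in none of 15 lower sterol genes with an entry. The form searched was in 0.0543% of genes in both tables, so its absence from so few genes decides little. The ATF4 element (CARE) was in 2 of 23 higher integrated stress response genes with an entry (8.7%), against 0.511% of genes in both tables. All these matches are a description of the windows, not binding sites.

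**Figure D3:**
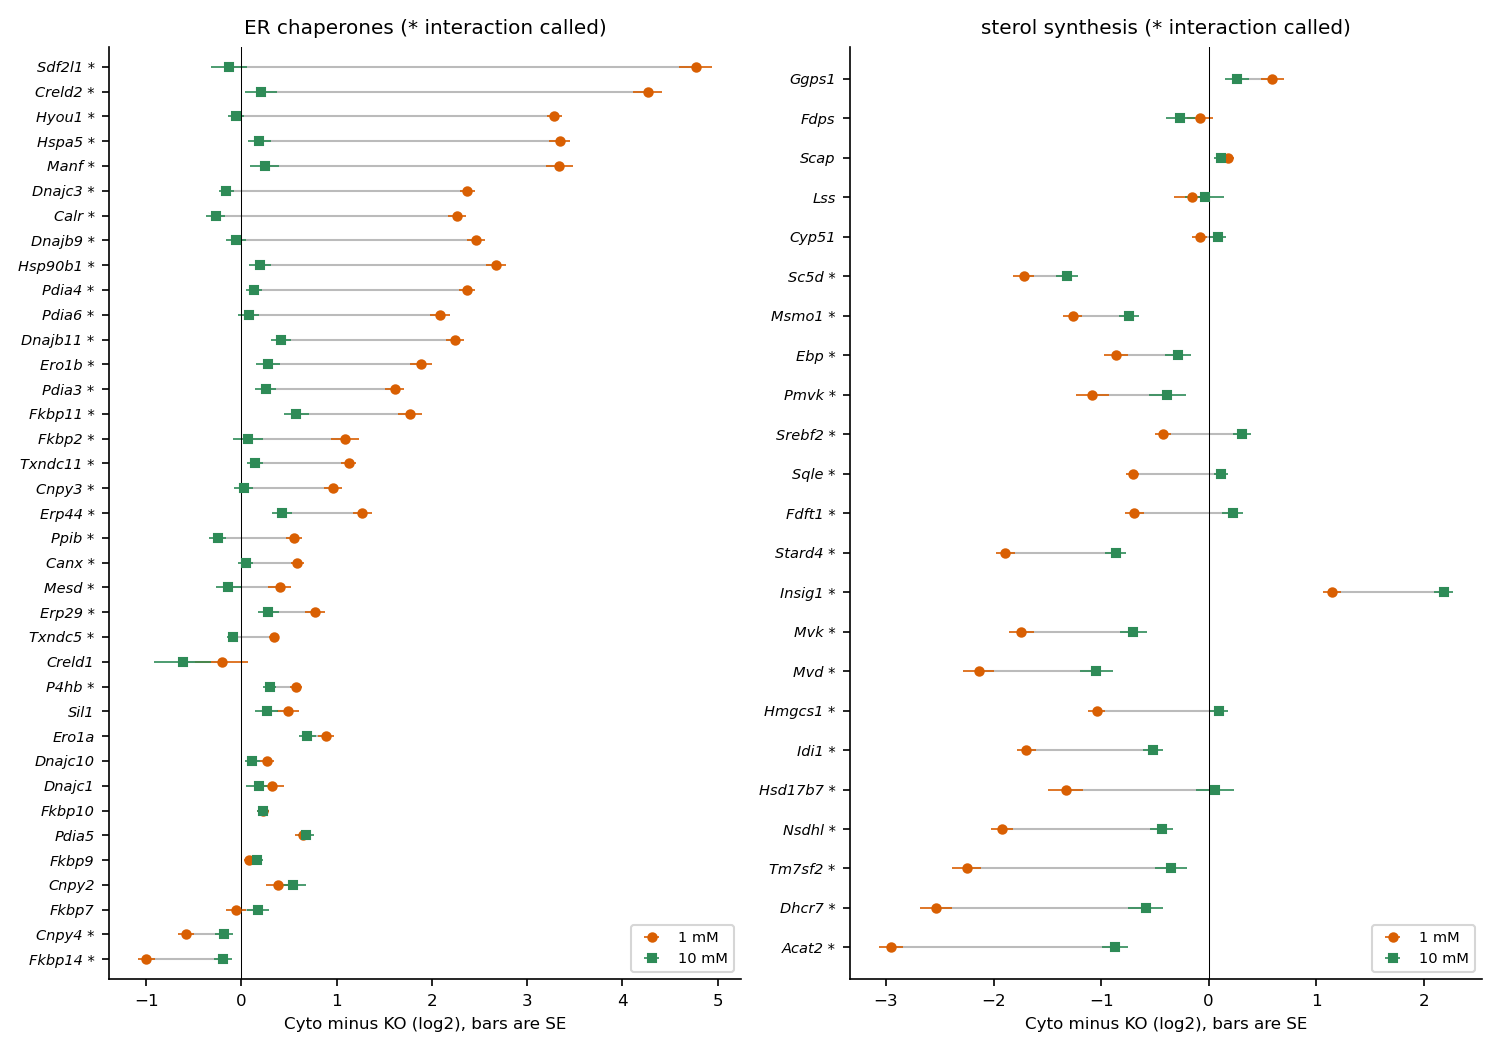
The Cyto effect (Cyto minus KO, log2, ± SE) is drawn for each of 37 ER chaperones and 23 of the 26 sterol synthesis genes, with circles for 1 mM and squares for 10 mM glucose, and a star marks genes called for the glucose difference. Circles of the ER genes reach 4.77 at Sdf2l1 while their squares lie between -0.62 and 0.69, and circles of most sterol genes lie below their squares. Over all 26 sterol genes, drawn or not, effects lay between -2.953 and 1.786 in 1 mM and between -1.318 and 3.106 in 10 mM.

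The sensors of the unfolded protein response moved with its targets. Of 15 sensors and factors 11 were higher, 5 at least 2-fold, and 2 were lower, with a median of 0.73 on the log2 scale. Xbp1, whose mRNA is spliced by the sensor IRE1, read 8.28, 8.17, 8.26 and 8.22 log2 CPM in Cyto and 6.25, 6.58, 6.13 and 6.44 in KO cells in 1 mM, and 6.58, 6.62 and 6.61 in Cyto and 6.10, 6.21, 6.25 and 6.21 in KO cells in 10 mM glucose. The groups stood apart in both media, and the effect was 1.47 ± 0.11 larger in 1 mM on the log2 scale. The sensor kinase PERK (Eif2ak3) and the sensor ATF6 had glucose differences of 1.57 ± 0.11 and 1.30 ± 0.13, both from effects that were called in each medium. Creb3l1, an ER-bound transcription factor of collagen genes, was lower at -0.42 ± 0.11, with effects of 1.27 ± 0.07 in 1 mM and 1.69 ± 0.08 in 10 mM. Mbtps1, the protease that releases ATF6 and the SREBPs, was lower at -0.23 ± 0.08. Its call was lost without Cyto library 2 in 10 mM glucose (-0.20) and with a trend on transcript length removed (-0.24).

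Steps on either side of folding were also higher. Of 25 listed genes of ER-associated degradation 13 were higher and 3 lower (median 0.29), led by Herpud1, which assembles the degradation complex, at 2.31 ± 0.11, the ubiquitin ligase Syvn1 at 1.72 ± 0.10 and Selenos, a membrane component, at 1.39 ± 0.16 on the log2 scale. Of 34 N-glycan assembly genes 21 were higher and 1 lower (median 0.51). Rpn1 and Stt3b of the oligosaccharyltransferase had 1.75 ± 0.13 and 0.88 ± 0.07, and the mannosyltransferase Alg12 had 1.44 ± 0.13. The lower member was Tusc3, another subunit of that complex, at -0.41 ± 0.14. It was not called without KO library 1 (-0.33) or without Cyto library 4 (-0.37) in 10 mM glucose. Of 55 genes of ER import, export and Golgi transport 33 were higher and 1, Kdelr1, lower (median 0.43), with 44 up in 1 mM and 13 up in 10 mM. The translocon channel Sec61a1 had a glucose difference of 0.94 ± 0.06, Ssr3 of the translocon-associated complex 1.14 ± 0.09 and the Golgi tether Uso1 1.23 ± 0.10 (log2).

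Amino acid and stress genes of the integrated stress response were higher as well. Both tables hold 37 members, of which 28 were higher, 17 at least 2-fold, and 2 were lower, with a median glucose difference of 0.88. Their effects had a median of 1.01 in 1 mM, with 32 up and 2 down, and of 0.25 in 10 mM, with 18 up and 5 down. Slc7a11, the cystine importer, which was also on the NRF2 list, read 7.61, 8.04, 7.94 and 7.81 log2 CPM in Cyto and 4.70, 4.87, 4.73 and 4.81 in KO cells in 1 mM. In 10 mM it read 3.68, 3.69 and 4.10 in Cyto and 4.49, 3.98, 4.05 and 3.90 in KO cells. It was 8.42-fold higher with Cyto in 1 mM, and the groups overlapped in 10 mM. Atf4, the factor that drives these genes and is largely set at translation, read 10.07, 9.95, 9.97 and 10.01 in Cyto and 9.06, 9.28, 9.17 and 9.40 in KO cells in 1 mM, and 9.05, 9.14 and 9.24 in Cyto and 8.66, 8.87, 8.94 and 8.99 in KO cells in 10 mM (log2 CPM). Each Cyto library was above all KO libraries in both media, and the glucose difference of its mRNA was modest, 0.49 ± 0.14.

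Further along the same response, Slc7a5, a carrier of large neutral amino acids, had a glucose difference of 1.04 ± 0.08 and Cth, which makes cysteine, 1.81 ± 0.13 (log2). Ddit3 (CHOP), Ppp1r15a, which directs the phosphatase that ends the response, and Chac1, which degrades glutathione, were picked after their values were seen. Their effects were 2.62 ± 0.15, 3.34 ± 0.17 and 1.99 ± 0.11 in 1 mM, and 1.18 ± 0.16, 1.05 ± 0.18 and 0.99 ± 0.12 in 10 mM glucose. Gdf15, a secreted stress factor, read 5.77, 5.93, 5.90 and 5.76 log2 CPM in Cyto and 4.83, 4.94, 5.15 and 5.41 in KO cells in 1 mM, and 3.84, 3.66 and 3.37 in Cyto and 4.57, 4.89, 4.96 and 5.05 in KO cells in 10 mM. The Cyto libraries were all above KO in the low medium and all below it in the high one, with a glucose difference of 2.00 ± 0.22. The 2 lower members were Atf5, at -0.83 ± 0.15, and the lipoprotein receptor Vldlr, at -0.86 ± 0.17.

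Of 20 aminoacyl-tRNA synthetases in both tables, from 38 symbols written that include older spellings, 16 were higher and Qars1 was lower, at -0.82 ± 0.16 (median 0.64, log2). Nars1 had 1.16 ± 0.08, Wars1 0.92 ± 0.08 and Farsb 1.29 ± 0.11. Of 23 heat shock genes 16 were higher and 4 lower (median 0.56). Among them were Dnajb1, an Hsp40 co-chaperone, at 1.26 ± 0.13, the small heat shock proteins Hspb8 at 1.13 ± 0.10 and, picked after its values were seen, Hspb1 at 1.57 ± 0.26, and the mitochondrial chaperonin Hspd1 at 1.01 ± 0.11, whose effects were opposite in the 2 media.

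Sterol synthesis genes went the other way. Of 26 members 21 were lower, 12 of them at least 2-fold, and none was higher, with a median glucose difference of -0.95 on the log2 scale against -0.03 for all genes. In 1 mM glucose 19 were down and 4 up with Cyto (median effect -1.06), and in 10 mM 10 were down and 3 up (median -0.27). Of the 21, 10 were down in both media and more so in 1 mM, and 8 were called in 1 mM alone. Acat2, the cytosolic thiolase that joins 2 acetyl-CoA in the first step of the pathway, read 5.79, 5.05, 5.38 and 5.63 log2 CPM in Cyto and 8.37, 8.32, 8.47 and 8.50 in KO cells in 1 mM. In 10 mM it read 7.06, 7.05 and 7.13 in Cyto and 7.73, 8.04, 8.01 and 8.02 in KO cells. Cyto lay below KO in every library of both media, 7.74-fold in 1 mM and 1.83-fold in 10 mM on the scale of group means. Nsdhl, a late demethylation enzyme, read 5.34, 4.74, 5.22 and 5.25 log2 CPM in Cyto and 7.09, 7.01, 7.08 and 7.06 in KO cells in 1 mM, and 6.12, 6.01 and 5.93 in Cyto and 6.39, 6.54, 6.47 and 6.40 in KO cells in 10 mM. Its glucose difference was -1.49 ± 0.15, again from groups apart in both media.

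Not every sterol gene was down with Cyto. Insig1, which holds the SREBP complex in the ER, read 7.01, 6.73, 6.92 and 7.11 log2 CPM in Cyto and 5.72, 5.82, 5.81 and 5.83 in KO cells in 1 mM, and 6.95, 6.97 and 6.96 in Cyto and 4.60, 4.72, 4.96 and 4.82 in KO cells in 10 mM. It was up in both media and less so in 1 mM, with a glucose difference of -1.03 ± 0.12. Hmgcs1, which makes HMG-CoA, had an effect of -1.04 ± 0.08 in 1 mM and of 0.09 ± 0.08 in 10 mM (log2), where it was not called. Dhcr7, picked after its values were seen, had a glucose difference of -1.95 ± 0.22. Cyp51 and Fdps were among the 5 members not called, with -0.17 ± 0.10 and 0.18 ± 0.18.

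Of 24 fatty acid synthesis genes 6 were higher and 8 lower, beside 21.5% and 23.2% of all genes, with a median of -0.11 on the log2 scale, so the list as a whole lay near the background and single members carried the larger values. Fasn, fatty acid synthase, read 8.45, 8.24, 8.06 and 8.13 log2 CPM in Cyto and 9.73, 9.55, 9.80 and 9.53 in KO cells in 1 mM, and 9.28, 9.11 and 9.03 in Cyto and 8.84, 8.97, 9.0 and 8.81 in KO cells in 10 mM. Fasn was below KO in the low medium and just above it in the high one, with log2 effects of -1.43 ± 0.08 and 0.23 ± 0.09. The desaturases Scd1 and Fads2 had glucose differences of -1.44 ± 0.14 and -1.22 ± 0.08. Elovl4, which extends very long chains, read 3.73, 3.67, 3.63 and 3.83 log2 CPM in Cyto and 2.30, 2.49, 2.46 and 2.20 in KO cells in 1 mM, and 0.57, 1.24 and 1.15 in Cyto and 1.74, 1.26, 1.92 and 1.96 in KO cells in 10 mM. It was up in 1 mM and down in 10 mM, opposite to Fasn, with a glucose difference of 2.08 ± 0.23.

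Genes that supply acetyl-CoA or move it gave 7 lower and 2 higher of 15 members. The 2 higher were Acly and Slc33a1, which carries acetyl-CoA into the ER, at 0.95 ± 0.10. The mitochondrial citrate carrier Slc25a1 had -0.94 ± 0.11, and Acss2, which makes acetyl-CoA from acetate and was picked after its values were seen, had effects of -2.06 ± 0.14 in 1 mM and -0.90 ± 0.15 in 10 mM (log2). Cpt1a, the gate of mitochondrial fatty acid oxidation, had effects of -0.85 ± 0.08 in 1 mM and 0.41 ± 0.09 in 10 mM. Of 10 LXR and cholesterol efflux genes 4 were up and 3 down with Cyto in 1 mM, and 8 were up and none down in 10 mM, with 5 lower and 1 higher for the glucose difference. Abcg4, an efflux transporter of this list, has a value in the 10 mM table alone. It read -1.69, -1.48 and -2.15 log2 CPM in Cyto and 0.40, -0.38, 0.64 and 0.63 in KO cells. It may be listed only because 1 group is high, so its direction is no result about the list. Lpcat3, a phospholipid remodelling enzyme, had -1.05 ± 0.10, Arl4c -0.67 ± 0.09 and the lysosomal sterol carrier Npc2 -0.97 ± 0.14. The efflux pump Abca1, picked after its values were seen, was up by 3.31 ± 0.17 in 1 mM and 3.00 ± 0.18 in 10 mM, and its glucose difference of 0.30 ± 0.25 was not called.

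Histone acetyltransferases, which use nuclear acetyl-CoA, were listed with the deacetylases and readers of the mark, and the list stood near the background. Of 40 members 8 were higher and 6 lower, with a median of 0.00, and the 8 became 5 under quantile normalization and without KO library 1 and Cyto library 4 in 10 mM. The deacetylases Hdac7 and Hdac5 had glucose differences of -0.61 ± 0.10 and -0.67 ± 0.13 on the log2 scale.

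Glycolysis genes were more often lower than higher. Of 24 members 13 were lower and 4 higher (median -0.35). In 1 mM glucose 11 were up and 10 down with Cyto, and in 10 mM 14 were up and 1 down. Pfkp, the platelet-type phosphofructokinase, read 4.62, 4.28, 4.59 and 4.63 log2 CPM in Cyto and 5.22, 4.99, 5.18 and 5.15 in KO cells in 1 mM, and 6.19, 6.21 and 6.13 in Cyto and 5.19, 5.16, 5.24 and 5.09 in KO cells in 10 mM. Pfkp was below KO in every Cyto library in 1 mM and above KO in every one in 10 mM, with a glucose difference of -1.61 ± 0.12. Aldoa, aldolase A, read 9.20, 9.02, 8.99 and 8.99 in Cyto and 8.65, 8.54, 8.61 and 8.56 in KO cells in 1 mM, and 9.46, 9.44 and 9.50 in Cyto and 8.27, 8.27, 8.44 and 8.56 in KO cells in 10 mM (log2 CPM). It was up in both media, by 0.46 ± 0.07 in 1 mM and 1.08 ± 0.08 in 10 mM. The muscle phosphofructokinase Pfkm had -0.86 ± 0.08. Of genes picked after their values were seen, Pfkl had -0.42 ± 0.12 and Gapdh -0.74 ± 0.12. The higher members included Slc16a1, a lactate carrier, at 1.11 ± 0.11, and, picked later, hexokinase 2 (Hk2) at 0.87 ± 0.12 and Pfkfb3, which makes an activator of phosphofructokinase, at 0.97 ± 0.21.

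Txnip and Arrdc4 encode related arrestins that restrain glucose uptake and are both induced by glucose through MondoA and ChREBP. Txnip read 1.08, 0.99, 1.26 and 1.93 log2 CPM in Cyto and 4.50, 3.60, 3.96 and 3.81 in KO cells in 1 mM, and 7.10, 7.02 and 7.11 in Cyto and 6.99, 7.02, 7.16 and 6.99 in KO cells in 10 mM. Arrdc4 read 1.94, 2.82, 2.91 and 2.81 in Cyto and 0.65, 0.40, 1.33 and -0.26 in KO cells in 1 mM, and 4.30, 4.15 and 4.32 in Cyto and 3.77, 4.15, 4.20 and 3.91 in KO cells in 10 mM (log2 CPM). In 1 mM the 2 genes stood apart from KO in opposite directions, and in 10 mM the groups overlapped for both. Their glucose differences were -2.69 ± 0.27 for Txnip and 1.84 ± 0.34 for Arrdc4 (log2). Both genes were low in 1 mM, and the number of reads behind them is unknown.

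Pentose phosphate and nucleotide synthesis genes were more often higher than all genes. Of 33 members 20 were higher and 2 lower (median 0.46), with 15 up and 9 down in 1 mM and 3 up and 19 down in 10 mM. Prps1, which makes the ribose donor of nucleotides, had effects of 0.89 ± 0.07 in 1 mM and -0.57 ± 0.08 in 10 mM. Gmps, of guanine nucleotide synthesis, had a glucose difference of 1.05 ± 0.09, and the deaminase Dctd had 1.10 ± 0.09. The 2 lower members were the S-phase genes Rrm1, at -0.66 ± 0.13, and Tk1, at -1.11 ± 0.21 (log2). Hexosamine genes went both ways, with 6 of 12 higher and 4 lower (median 0.15). Gfpt1, the entry enzyme of the pathway, had 1.24 ± 0.14, Gnpnat1, which uses acetyl-CoA to acetylate glucosamine phosphate, had 2.03 ± 0.23, and Gnpda1, which runs the entry step backwards, had -1.02 ± 0.13.

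Interferon and antigen presentation genes were among the lists with the largest differences. Both tables hold 33 members, of which 20 were higher, 15 at least 2-fold, and 2 were lower (median 0.99). In 1 mM 18 were up and 7 down with Cyto, and in 10 mM 3 were up and 13 down. Usp18, which ends interferon signalling, read 4.06, 4.24, 4.24 and 4.19 log2 CPM in Cyto and 1.17, 1.59, 1.14 and 1.03 in KO cells in 1 mM, and -0.37, -0.10 and -0.62 in Cyto and 0.83, -0.46, 0.70 and 1.24 in KO cells in 10 mM. The gap in 1 mM was wide and even, a negative effect was called in 10 mM from groups that overlapped, and the glucose difference was 3.89 ± 0.52.

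Of other interferon-induced genes picked after their values were seen, Ifit1 had a glucose difference of 2.41 ± 0.31, Irf7 2.29 ± 0.32, Isg15 2.33 ± 0.49, Ifi44 2.74 ± 0.53 and Gbp3 2.89 ± 0.69 (log2). The DNA sensors Ifi203 and Ifi204, close relatives whose reads could have been split between them, had 2.08 ± 0.22 and 1.00 ± 0.13. The antigen presentation genes H2-K1, H2-Q4 and Psmb9 were down with Cyto in both media, and less so in 1 mM. H2-K1, a class I heavy chain, read 4.76, 4.70, 4.55 and 4.65 log2 CPM in Cyto and 6.26, 6.27, 6.36 and 6.31 in KO cells in 1 mM, and 1.65, 0.52 and 2.47 in Cyto and 5.71, 5.77, 5.89 and 6.00 in KO cells in 10 mM. The Cyto libraries were below all KO libraries in both media and varied among themselves in 10 mM. H2-Q4 and the immunoproteasome subunit Psmb9 had the same form, with effects of -0.56 ± 0.17 and -0.96 ± 0.19 in 1 mM and of -2.51 ± 0.18 and -1.96 ± 0.20 in 10 mM. Class I genes are near-identical in sequence, so their values are uncertain. The lower members were Irf1, at -0.54 ± 0.15, and Tapbp, at -0.38 ± 0.14. Tapbp lost its call when any of 6 single libraries was left out (-0.30 to -0.35) and with a replicate term (-0.355). The macrophage and leukocyte marker sum was 12 to 17 CPM in Cyto and 23 to 28 CPM in KO libraries in 1 mM, and 17 to 20 CPM in Cyto and 19 to 25 CPM in KO libraries in 10 mM glucose.

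NRF2 and glutathione genes gave 11 higher and 1 lower of 23 members (median 0.22). Hmox1, heme oxygenase, read 10.58, 10.93, 10.81 and 10.62 log2 CPM in Cyto and 7.58, 7.73, 7.48 and 7.65 in KO cells in 1 mM, and 6.03, 6.24 and 6.22 in Cyto and 6.34, 6.66, 6.59 and 6.60 in KO cells in 10 mM. It was 8.72-fold up in 1 mM and 1.30-fold down in 10 mM, with groups apart in both, and its glucose difference was 3.51 ± 0.13. Gclc and Gclm, the subunits of the first enzyme of glutathione synthesis, had 1.54 ± 0.10 and, picked after its values were seen, 1.73 ± 0.17. Other classical targets did not move with them: Nqo1 was down in both media and not called for the glucose difference (-0.32 ± 0.15), and Gstm1, 1 of several similar transferases, was lower at -0.76 ± 0.14.

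Inflammatory and growth signalling genes were mixed, with large single differences. Of 22 chemokines and inflammatory factors 10 were higher and 5 lower, beside 21.5% and 23.2% of all genes. Ptgs2, the inducible cyclooxygenase, read 6.16, 6.80, 6.86 and 6.49 log2 CPM in Cyto and 2.46, 3.35, 3.14 and 3.77 in KO cells in 1 mM, and 5.91, 6.12 and 6.06 in Cyto and 6.41, 6.39, 6.49 and 6.21 in KO cells in 10 mM. The wide gap in 1 mM gave a glucose difference of 3.74 ± 0.29. The Cyto libraries lay just below KO in 10 mM, an effect of -0.35 ± 0.21 that was not called. Csf1, the macrophage growth factor, had 1.55 ± 0.09 and Cxcl12, a homing chemokine, -1.51 ± 0.11. Of 36 immediate early genes and feedback genes of the ERK pathway 12 were higher and 6 lower, beside the same shares of all genes. Etv5, an ERK-induced transcription factor, read 7.12, 7.17, 7.10 and 6.96 log2 CPM in Cyto and 5.37, 5.40, 5.41 and 5.39 in KO cells in 1 mM, and 4.70, 4.59 and 4.62 in Cyto and 5.48, 5.56, 5.46 and 5.69 in KO cells in 10 mM. It was up in 1 mM and down in 10 mM in every library. The feedback inhibitor Spry4 had 2.04 ± 0.23 and the stress-induced factor Atf3 1.92 ± 0.23, both up in each medium. Dusp6, a phosphatase of ERK, and Fosl1, picked after their values were seen, had 2.15 ± 0.37 and 2.26 ± 0.27 (log2).

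Matrix genes were more often lower. Of 41 collagens and collagen-processing genes 23 were lower and 7 higher (median -0.36), of 38 other matrix genes 22 were lower and 4 higher (median -0.49), and of 32 matrix proteases and their inhibitors 14 were lower and 7 higher. Of all genes 23.2% were lower and 21.5% higher, and the 7 higher proteases lay near the latter share. In 1 mM glucose 14 of the collagen list were up and 21 down with Cyto, and in 10 mM 24 were up and 9 down. On the collagen list 8 genes and on the other matrix list 11 were called in both media in opposite directions. The fibroblast marker sum moved with these lists: it was lower in Cyto than in KO libraries in 1 mM and higher in 10 mM, and Col1a1, Dcn and 2 other collagens are on both. Of the 11 markers 9 were lower and none higher, and their part in the matrix result was not tested.

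Col1a1, the main chain of type I collagen, read 13.33, 13.13, 13.11 and 13.02 log2 CPM in Cyto and 13.60, 13.40, 13.49 and 13.36 in KO cells in 1 mM, and 13.42, 13.29 and 13.14 in Cyto and 12.47, 12.49, 12.59 and 12.60 in KO cells in 10 mM. It was below KO in the low medium and above it in the high one, and the glucose difference was -1.06 ± 0.10. Dcn, the proteoglycan decorin, read 3.85, 3.99, 4.03 and 3.96 in Cyto and 4.88, 4.76, 4.87 and 4.80 in KO cells in 1 mM, and 5.16, 5.23 and 5.53 in Cyto and 3.56, 3.04, 3.61 and 3.77 in KO cells in 10 mM (log2 CPM). It had the same form with larger steps, -0.87 ± 0.12 in 1 mM and 1.81 ± 0.12 in 10 mM. The short-chain collagen Col8a1 had a glucose difference of -2.33 ± 0.14, the crosslinking oxidase Lox -1.51 ± 0.10, Aspn, a decorin relative, -2.55 ± 0.11, and Mgp, a calcification inhibitor, -2.25 ± 0.19 (log2).

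Lama4, a chain of basement membrane laminins, went against its list. It read 7.75, 7.87, 7.78 and 7.71 log2 CPM in Cyto and 7.62, 7.66, 7.58 and 7.46 in KO cells in 1 mM, and 4.60, 4.50 and 4.52 in Cyto and 6.71, 6.58, 6.52 and 6.45 in KO cells in 10 mM. The Cyto libraries were just above KO in 1 mM and 4.07-fold below it in 10 mM. Of the proteases, the plasminogen activator Plat had -1.68 ± 0.12, Adamts1 -1.59 ± 0.13 and the membrane-bound Mmp14 -1.08 ± 0.09. Mmp9, picked after its values were seen, was higher at 1.79 ± 0.15. Among 31 TGF-beta genes 14 were lower and 5 higher. Grem1, a BMP antagonist, had -1.46 ± 0.10 and Ltbp2, of the latent TGF-beta binding family, 2.81 ± 0.27. Of 20 IGF and insulin signalling genes 12 were lower and none higher (median -0.54), with Igfbp5 at -3.15 ± 0.26, Igfbp7 at -1.11 ± 0.13 and Igfbp6 at -1.12 ± 0.16 (log2).

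Contractile genes leaned the same way. Of 23 members 15 were lower and 2, Actg2 and Zyx, higher (median -0.43). In 1 mM 5 were up and 11 down with Cyto, in 10 mM 16 were up and 2 down, and 7 were called in opposite directions. Tagln, an actin-binding protein of smooth muscle and myofibroblasts, read 3.22, 2.93, 3.72 and 3.22 log2 CPM in Cyto and 4.99, 4.88, 4.79 and 4.74 in KO cells in 1 mM, and 6.09, 6.31 and 6.55 in Cyto and 5.86, 5.53, 5.75 and 6.04 in KO cells in 10 mM. Every Cyto library was below KO in 1 mM, by 2.99-fold on the scale of group means, and above it in 10 mM. Cnn2 and Actn1, both actin-binding, had -1.11 ± 0.12 and -1.14 ± 0.14. Smooth muscle markers, of which 3 of 5 were listed in 1 mM and 4 in 10 mM, all on the contractile list too, summed to 23 to 35 CPM in Cyto and 20 to 24 in KO libraries in 1 mM, and to 53 to 61 in Cyto and 34 to 37 in KO libraries in 10 mM, and their part in the result was not tested.

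Genes of the cell cycle were down with Cyto in both media. All 36 mitosis genes were down in 1 mM (median effect -1.30) and 35 in 10 mM (median -0.76), with 21 lower for the glucose difference and 1, Smc4, higher (0.39 ± 0.13). Smc4 was not called without Cyto library 1 in 10 mM (0.31) or under quantile normalization (0.308). Cenpf, a kinetochore protein picked after its values were seen, read 3.08, 3.66, 3.12 and 4.16 log2 CPM in Cyto and 5.68, 5.53, 5.82 and 5.61 in KO cells in 1 mM, and 7.05, 6.58 and 6.60 in Cyto and 7.55, 7.58, 7.24 and 7.13 in KO cells in 10 mM. It was below KO in every library of both media, more so in 1 mM, and the Cyto libraries of 1 mM were the most spread. The checkpoint kinase Bub1b had a glucose difference of -1.08 ± 0.15, the kinesin Kif20a -0.85 ± 0.12 and the kinetochore gene Nuf2 -0.89 ± 0.13. Of 40 replication genes 35 were down in 1 mM and 34 in 10 mM, and for the glucose difference 10 were lower and 6 higher, near the shares of all genes. Mcm2 of the replicative helicase was higher at 0.58 ± 0.06 and Mcm6 of the same ring lower at -0.52 ± 0.09 (log2).

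Transcripts of the mitochondrial genome were also down. Of 13 encoded genes 10 were lower and none higher (median -0.70). All 13 were down with Cyto in 1 mM and 5 in 10 mM. mt-Nd2, a subunit of complex I, read 7.92, 7.94, 8.18 and 7.94 log2 CPM in Cyto and 9.69, 9.53, 9.43 and 9.47 in KO cells in 1 mM, and 10.92, 11.04 and 11.08 in Cyto and 11.29, 11.33, 11.27 and 11.26 in KO cells in 10 mM. The step was wide in 1 mM and narrow in 10 mM, with a glucose difference of -1.27 ± 0.11, and mt-Nd1 had -0.93 ± 0.10. Their share of the CPM total was 0.875% to 1.06% in Cyto and 1.65% to 1.95% in KO libraries in 1 mM, and 3.74% to 4.40% in Cyto and 4.70% to 4.79% in KO libraries in 10 mM. Nuclear genes of the respiratory chain did not follow: of 49, 6 were higher and 7 lower. The 6 became 3 without KO library 4 or without Cyto library 1 in 10 mM, and 10 under arrayWeights, which weights libraries by their spread.

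Ribosomal protein genes gave 38 lower and none higher of 75 members (median -0.41). With Cyto 36 were down and 1 up in 1 mM, and 14 were up and 3 down in 10 mM. The 14 up were no larger a share than the 22.7% of all genes up in 10 mM. The count of lower genes moved with single libraries: 25 were lower without Cyto library 4 in 10 mM, and 16 (median -0.30) without that library and KO library 1 in 10 mM. Reads of these genes can be shared with pseudogenes, so single values such as that of Rpl37a, -1.05 ± 0.19, are uncertain.

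Genes that turned round between media with steps of size in both were picked by rule as the 5 per direction with the largest smaller step. Up in 1 mM and down in 10 mM were Slc1a3, a glutamate transporter, Fez1, a kinesin adaptor, Ptx3, a secreted pattern recognition protein, Fam131b and Orc2, of the origin recognition complex. Slc1a3 read 7.31, 7.32, 7.25 and 7.31 log2 CPM in Cyto and 6.18, 6.41, 6.33 and 6.38 in KO cells in 1 mM, and 5.42, 5.21 and 5.75 in Cyto and 7.46, 7.50, 7.51 and 7.38 in KO cells in 10 mM. Its Cyto libraries were 1.96-fold above KO in 1 mM and 4.01-fold below it in 10 mM, with no overlap. Ptx3 had effects of 1.29 ± 0.09 in 1 mM and -0.72 ± 0.10 in 10 mM (log2). The effects of Fez1, Fam131b and Orc2 lay between 0.73 and 1.04 in 1 mM and between -0.84 and -0.68 in 10 mM. Tubb3, a neuronal tubulin picked after its values were seen, had effects of 1.36 ± 0.18 in 1 mM and -2.58 ± 0.19 in 10 mM. It is 1 of 2 neural markers listed of 6 (Rbfox3, Sox10, Nes and Gfap were not), whose sum was 23 to 33 CPM in Cyto and 37 to 43 in KO libraries in 1 mM, and 17 to 31 in Cyto and 57 to 78 in KO libraries in 10 mM glucose.

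Down in 1 mM and up in 10 mM were Nrep, Lima1, Fstl1, Rgs2 and Plekhg2. Nrep, a regulator of TGF-beta signalling, read 6.47, 6.05, 6.20 and 6.43 log2 CPM in Cyto and 7.56, 7.45, 7.52 and 7.33 in KO cells in 1 mM, and 7.77, 7.84 and 7.90 in Cyto and 6.48, 6.73, 6.65 and 6.70 in KO cells in 10 mM. Fstl1, a secreted follistatin relative, read 7.95, 7.70, 7.82 and 7.97 in Cyto and 8.89, 8.80, 8.86 and 8.76 in KO cells in 1 mM, and 9.65, 9.66 and 9.64 in Cyto and 8.72, 8.68, 8.79 and 8.78 in KO cells in 10 mM (log2 CPM). Both genes stood apart from KO in both media by steps of similar size and opposite sign. Lima1, an actin-binding protein, had effects of -1.13 ± 0.08 in 1 mM and 0.98 ± 0.09 in 10 mM. Rgs2, which turns off G-protein signals, had -0.89 ± 0.12 in 1 mM and 0.80 ± 0.13 in 10 mM, and Plekhg2, a guanine nucleotide exchange factor, had -1.09 ± 0.16 in 1 mM and 0.73 ± 0.17 in 10 mM.

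**Figure D4:**
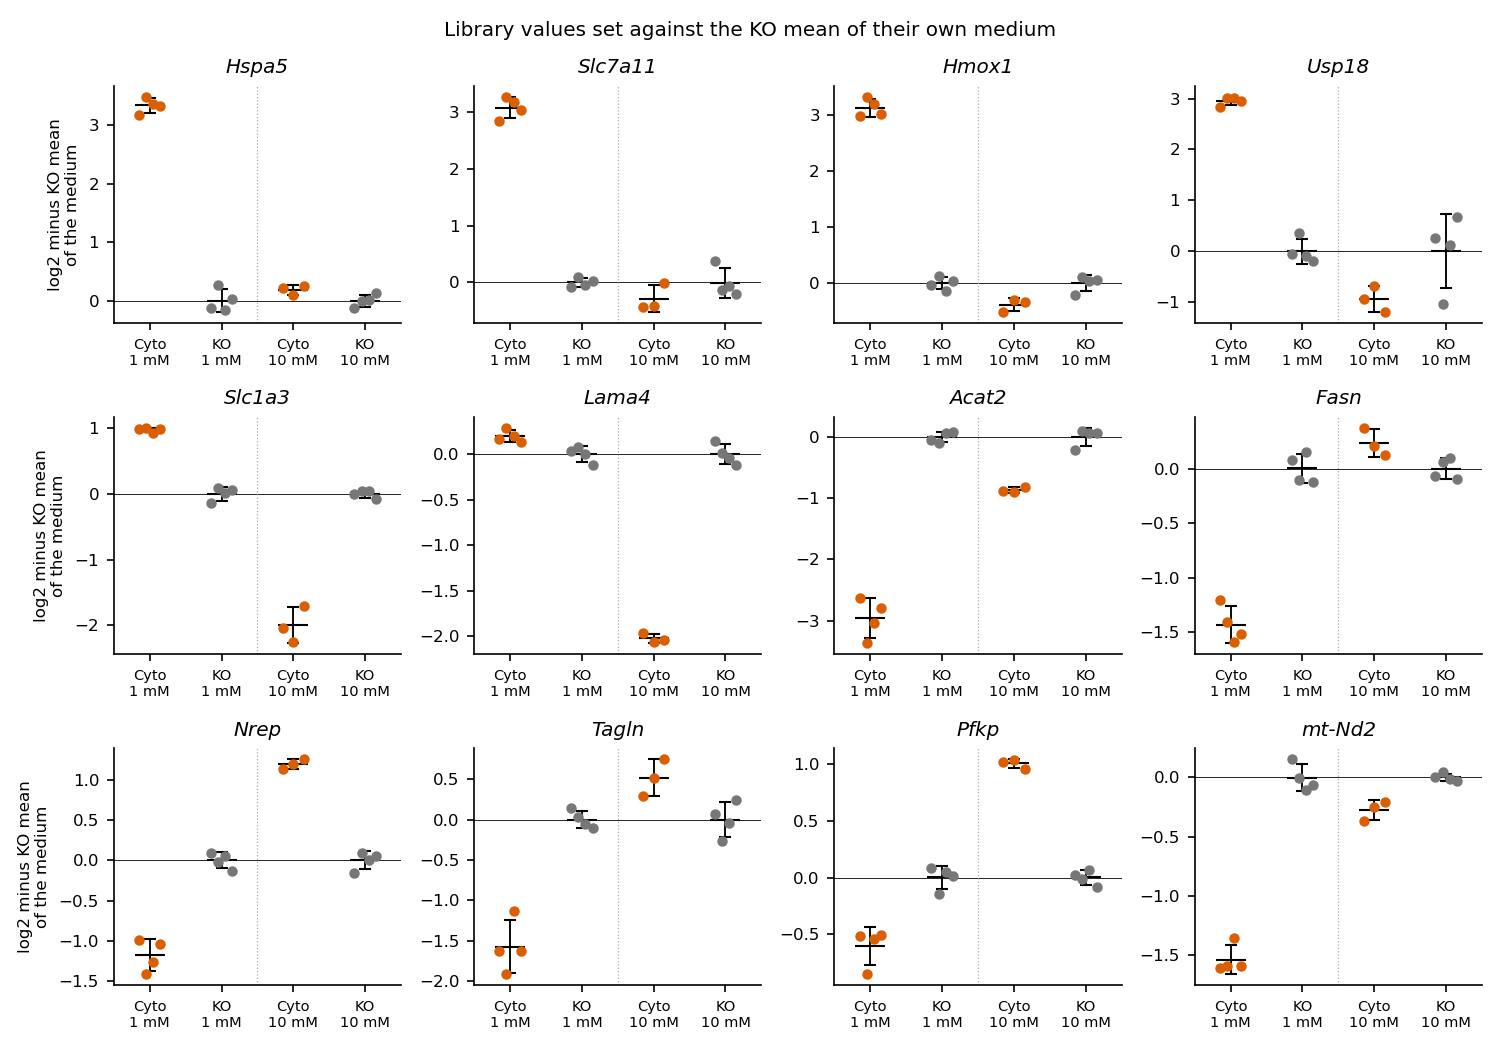
Each panel shows 1 gene of 12, with a point per library (log2 CPM minus the KO mean of the same medium) for Cyto and KO in 1 mM and then in 10 mM glucose, and bars for the mean ± SD. Hspa5, Slc7a11, Hmox1 and Usp18 stand above KO in 1 mM and near or below it in 10 mM, Slc1a3 and Lama4 are above KO in 1 mM and well below it in 10 mM, and Nrep, Pfkp, Fasn and Tagln are below KO in 1 mM and above it in 10 mM.

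Whether these differences belonged to Cyto or to any ACLY was asked by setting Cyto against WT and Nuc in the same way. KO values cancel from these differences, though KO libraries still enter the fit's estimate of spread. The difference between Cyto and WT depended on the medium for 3545 genes (29.7%), 1690 higher (14.2%) and 1855 lower (15.5%). That between Cyto and Nuc did so for 2261 genes (19%), 1131 higher (9.48%) and 1130 lower (9.47%). The median shifts over all genes were -0.01 and -0.02 on the log2 scale.

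Few sterol genes were called lower for Cyto than for the other ACLY constructs. For Cyto against WT 7 of 26 were higher and 1 lower, and against Nuc 2 were higher and 1 lower. WT and Nuc, set against the same KO libraries, had 23 and 21 sterol genes lower and none higher, beside 12.7% and 18.7% of all genes lower for WT and for Nuc. For Acat2 the glucose difference over KO was -2.08 ± 0.17 for Cyto, -1.75 ± 0.16 for WT and -1.74 ± 0.16 for Nuc. Cyto minus WT was -0.34 ± 0.17 and Cyto minus Nuc -0.35 ± 0.17, neither called.

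For the ER chaperones Cyto went beyond WT but was not called against Nuc for most genes. Against WT 20 of 37 were higher and 2 lower (median 0.45), and against Nuc 1 was higher and 1 lower (median 0.01). Hspa5 had a glucose difference over KO of 3.16 ± 0.16 for Cyto, 2.10 ± 0.16 for WT and 3.04 ± 0.16 for Nuc. The Cyto minus WT value was 1.05 ± 0.16 and called, and the Cyto minus Nuc value was 0.11 ± 0.16 (limma, Benjamini-Hochberg adjusted p = 0.708). Of 37 integrated stress response genes 20 were higher and none lower against WT, and 14 were higher and 1 lower against Nuc. Slc7a11 had 3.36 ± 0.21 for Cyto, 1.03 ± 0.20 for WT and 1.67 ± 0.20 for Nuc, all over KO.

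Interferon, NRF2 and mitochondrially encoded genes differed from both other constructs. Of 33 interferon and antigen presentation genes 23 were higher against WT and 19 against Nuc, with none lower in either (medians 0.94 and 0.68). Over KO, WT had 3 higher and 4 lower and Nuc 10 higher and 4 lower, beside 13.5% and 17.8% of all genes higher for WT and for Nuc. Usp18 had a glucose difference over KO of 3.89 ± 0.52 for Cyto, 1.24 ± 0.50 for WT and 1.73 ± 0.50 for Nuc. Of 23 NRF2 genes 13 were higher against WT and 10 against Nuc, with none lower. Over KO, 7 of them were higher and 4 lower for WT, 9 higher and 7 lower for Nuc, and 11 higher and 1 lower for Cyto. Hmox1, whose glucose difference was the largest of the list, had 3.51 ± 0.13 for Cyto, 0.63 ± 0.13 for WT and 0.78 ± 0.13 for Nuc over KO. Of 13 mitochondrially encoded genes 8 were lower against WT and 9 against Nuc, with none higher, and none was called for WT or Nuc over KO. For mt-Nd2 the value over KO was -1.27 ± 0.11 for Cyto, -0.11 ± 0.10 for WT and 0.05 ± 0.10 for Nuc.

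Glycolysis and mitosis genes also went lower for Cyto than for the other constructs, and contractile genes went lower against WT and both ways against Nuc. Of 24 glycolysis genes 14 were lower and 2 higher against WT, and 12 were lower and none higher against Nuc. Of 23 contractile genes 13 were lower and 2 higher against WT. Against Nuc 11 were lower and 5 higher, beside 9.47% and 9.48% of all genes. Tagln, the lowest of the list, had -2.10 ± 0.22 for Cyto over KO, with 0.07 ± 0.21 for WT and -0.00 ± 0.21 for Nuc. Of 36 mitosis genes 13 were lower and 2 higher against WT, and 21 were lower and none higher against Nuc. Lama4 differed in direction, with 2.22 ± 0.12 for Cyto over KO against -1.08 ± 0.12 for WT and -0.51 ± 0.12 for Nuc, all 3 called, and its Cyto minus WT and Cyto minus Nuc values were 3.30 ± 0.12 and 2.73 ± 0.12 (log2).

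**Figure D5:**
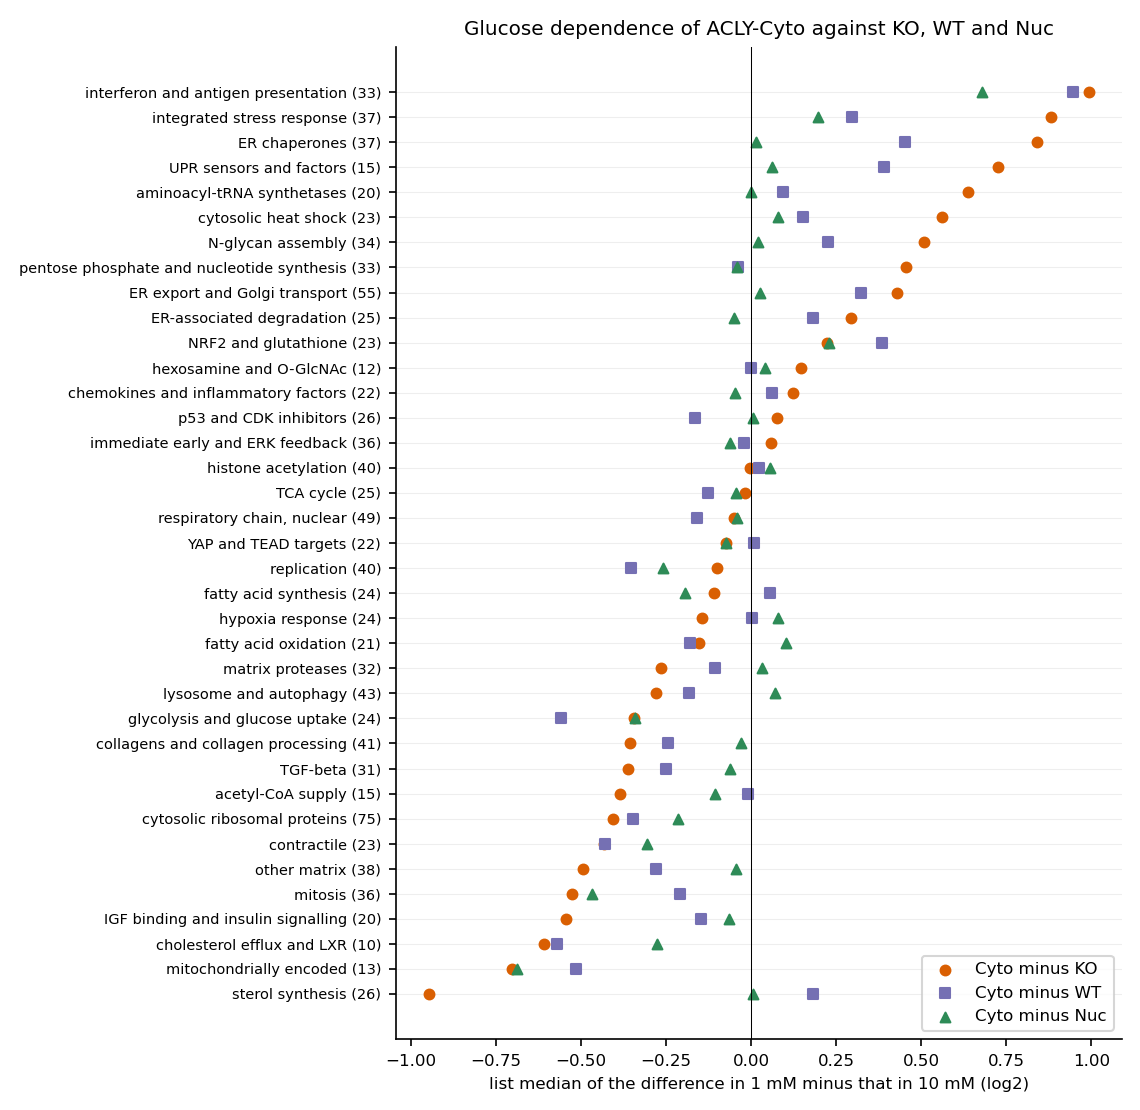
For each gene list with at least 10 members, points give the median of the difference in 1 mM minus that in 10 mM glucose (log2) for Cyto minus KO, Cyto minus WT and Cyto minus Nuc. ER chaperones have medians of 0.84, 0.45 and 0.01, sterol synthesis genes -0.95, 0.18 and 0.01, and interferon genes 0.99, 0.94 and 0.68.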

How the data were processed

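RNA-seq values of 31 libraries were used, in 1 table per medium. The authors deposited gene-level log2 values that fit log2 CPM with a small offset and a scaling between libraries, each table normalized on its own. Per the submitters' processing notes, kallisto, GRCm39, edgeR and limma were used; versions, roles and the filter for a gene to be listed are not given in the sources used here. Whole reads could not be recovered, so sequencing depth is unknown and no counting intervals are given. The entry without a gene name, 1 per table, was left out.

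All 8 groups (4 constructs in 2 media) entered 1 limma 3.58.1 fit of group means in R 4.3.3, its prior variance following the mean level. Genes were called where the p, adjusted by Benjamini-Hochberg over the 11931 genes in both tables, was under 0.05, and errors of effects are SEs of that fit. A medium's batch effect cancels from a construct effect only where it is equal in both constructs. Deviations of Cyto and KO libraries sharing a replicate number correlated weakly, at 0.157 or less, so none were paired. No libraries held identical values.

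The members and the gene lists were chosen with earlier results of these data known. Genes were named by a rule: Acly, the 10 highest and 10 lowest glucose differences at or above the median level, 5 per direction of those called in opposite directions, and up to 3 per list by adjusted p. Some of these are not named. All other named genes, exceptions to a list's direction and genes in the last observations included, were chosen after their values were seen. Alternatives were a prior without trend, equal library medians, quantile normalization, adding 1 before the log, a minimum mean of 0, arrayWeights, 1 weight per medium, a replicate term, the fit of the 15 Cyto and KO libraries, leaving out libraries, and removing a trend on transcript length, known for 96.3% of genes. Promoters come from RefSeq's GRCm38.p6, matched by symbol, a build other than that of the files, whose tables give no coordinates.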

Additional observations from a re-analysis of the deposited data

Results flagged for a closer look

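The Cyto effect over KO differed between media for 5332 genes, the difference between Cyto and WT for 3545 and that between Cyto and Nuc for 2261, each by limma's test of the difference itself, and for 799 genes the effect of Cyto over KO was called in opposite directions in the 2 media.

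In 96 groups of 4 libraries, covering the genes given per library, 6 held a library whose gap to the next, divided by the group's range, was past Dixon's critical value, which chance alone passes in about 1 group in 20. In KO cells in 10 mM glucose library 1 was low for Acat2 (7.73 log2 CPM, ratio 0.903). In Cyto cells in 1 mM glucose library 1 was low for Arrdc4 (1.94, ratio 0.897) and high for Aldoa (9.20, ratio 0.857). There library 2 was low for Pfkp (4.28, ratio 0.886), and library 3 was low for Slc1a3 (7.25, ratio 0.857) and high for mt-Nd2 (8.18, ratio 0.923).

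Of 6 list members in the 1 mM table alone, 5 were higher in every Cyto library than in every KO library. The mean differences were 2.44 for Fgf21, a secreted hormone of the integrated stress response, and 2.50 for Oas1a, 1.84 for Oas2, 2.02 for Oasl2 and 3.19 for Mx2, antiviral genes induced by interferon (log2 scale). Fgf21 read 2.60, 2.37, 1.86 and 2.59 log2 CPM in Cyto and -0.36, -0.14, 0.19 and -0.04 in KO libraries. The groups overlapped for Lcn2, the other one. Of 13 list members in the 10 mM table alone, 6 were lower in every Cyto library than in every KO library, none was higher in every one and 7 overlapped. The mean differences of the 6 were -3.32 for Psmb8, an immunoproteasome subunit, -2.02 for the interferon-induced Gbp7, -2.10 for Abcg4, -1.93 for the adhesion molecule Icam1, -1.49 for E2f2, a cell cycle transcription factor, and -0.93 for the chemokine Ccl8 (log2 scale). Genes with a value in 1 table alone have no glucose difference. The filter of each table is not known, so such a gene may be listed only because 1 group is high. Its direction may then follow from the listing, and these counts are no result about the members. Of genes in both tables, Cyto and KO libraries did not overlap, in either direction, for 63.8% in 1 mM and 42.6% in 10 mM. The 6 of 13 lay near the latter share.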

How the results depend on the processing

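Between 4848 and 5293 genes were called for the Cyto glucose difference when 1 library was left out, against 5332 with all. The ranges were 7110 to 7643 for Cyto over KO in 1 mM, 4579 to 5230 in 10 mM, 3170 to 3700 for Cyto minus WT, 1926 to 2368 for Cyto minus Nuc and 676 to 791 for opposite directions. Under arrayWeights 3672 genes were called for Cyto minus Nuc, against 2261; the cause was not tested. All other counts over all genes stayed within 1.5 times, and the higher share of calls was 44.7% to 48.6%. Of the 198 genes with values, only Tapbp, Tusc3, Mbtps1 and Smc4 lost their call in any alternative, and none changed sign while called. With the replicate number as a block 5418 genes were called. Deviations of same-numbered Cyto and KO libraries correlated at 0.0842, 0.157, -0.00888 and 0.119 in 1 mM, and between -0.00816 and 0.0109 in 10 mM. What libraries with 1 number share is not given. The length correction says nothing of aminoacyl-tRNA synthetases, of which few had a length. Unknown depth limits low genes such as Txnip, Arrdc4, Usp18 and Elovl4.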

Other observations

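Lysosome and autophagy genes, which clear and recycle cell contents, gave 22 lower and 4 higher of 43 members (median -0.28). In 1 mM glucose 17 were up and 12 down with Cyto, and in 10 mM 26 were up and 4 down. The shares of all genes were 30.7% up and 32.5% down in 1 mM, and 22.7% up and 21.3% down in 10 mM. The cathepsins Ctsb and Ctsa and the glucuronidase Gusb had glucose differences of -0.57 ± 0.07, -0.68 ± 0.09 and -0.88 ± 0.08 on the log2 scale. TCA cycle genes lay near the shares of all genes (21.5% higher, 23.2% lower), with 6 higher and 7 lower of 25 and a median of -0.02. The cytosolic isocitrate dehydrogenase Idh1, which makes NADPH, had -1.23 ± 0.11, while the mitochondrial Idh3a had 0.93 ± 0.10 and Suclg1 0.82 ± 0.13. Of 24 hypoxia genes 5 were higher and 9 lower. Bhlhe40, a repressor of the clock, had effects of -0.22 ± 0.08 in 1 mM and 1.06 ± 0.08 in 10 mM, and the carbonic anhydrase Car12 had 1.33 ± 0.17 in 1 mM and -0.64 ± 0.19 in 10 mM.

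Single genes not named above had some of the widest gaps. Pde1a, a calcium-dependent phosphodiesterase, had effects over KO of 4.15 ± 0.24 in 1 mM and -0.21 ± 0.26 in 10 mM, and its glucose difference was 4.36 ± 0.35 for Cyto, -0.26 ± 0.34 for WT and 1.49 ± 0.34 for Nuc. Ppef1, a calcium-binding phosphatase, had 3.99 ± 0.18 in 1 mM and 0.15 ± 0.20 in 10 mM. Cd248, a stromal surface protein, had a glucose difference of -2.54 ± 0.17 and the transcription factor Nfatc4 -1.96 ± 0.16. Tgfbi, a secreted matrix protein induced by TGF-beta, was down in both media, with effects of -7.59 ± 0.46 in 1 mM and -3.54 ± 0.50 in 10 mM. It is on the TGF-beta list, and its glucose difference of -4.055 was the lowest there. C3, of the complement cascade, had 1.49 ± 0.29 in 1 mM and -0.92 ± 0.32 in 10 mM.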
